A study of Mus musculus with 5 samples.

Results

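BRG1 peaks at the ends of protein-coding genes were taken from the peak list of oxLDL-treated wild-type (WT) macrophages. A peak was included when it was narrower than 1000 bp and its summit lay within 1 kb of either end of an mm10 RefSeq protein-coding gene, leaving out chromosome 9 before 3.1 Mb. These were 3022 of the 9341 peaks of that list that met the limits on width and position, and of its 9907 peaks in all. The nearest gene end was a 5′ end for 2311 peaks and a 3′ end for 130, and it belonged to a gene without a strand in the tables used for 581, which include all 86 gene-end peaks of chromosome 18.

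The study mapped BRG1 by ChIP-seq, the sequencing of DNA pulled down with an antibody to a chromatin protein, in bone marrow-derived macrophages (BMDMs) of WT and Baf60a knockout (KO) mice. The groups were untreated WT, untreated Baf60a KO, WT with oxidised low-density lipoprotein (oxLDL) and Baf60a KO with oxLDL, with 1 BRG1 library each, and 1 input library was not analysed here. The sources used here do not give the Cre line or promoter behind the knockout, the age and number of mice or the dose and duration of oxLDL. Each group is a single library, so no value has a replicate error and no test was made; intervals on shares are Wilson 95% intervals that cover counting error only.

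BRG1 (gene Smarca4) is the motor of SWI/SNF, a family of complexes that slide and evict nucleosomes at promoters and enhancers. BAF60a (gene Smarcd1) is a smaller subunit through which SWI/SNF contacts transcription factors. Scavenger receptors bring oxLDL into macrophages, which then turn into lipid-laden foam cells. At an active promoter a nucleosome-depleted stretch around the start site is followed by a well-placed first nucleosome inside the gene.

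A peak here is a place where the authors' caller found more BRG1 fragments than the local background, and its fold enrichment is the authors' value of the fragment pileup over that background. Gene-end peaks rested on 12 to 42 fragments at the summit, with a median of 17, and their fold enrichment ran from 2.23 to 8.82 with a median of 3.63. Of the 3022 peaks, 1707 (56.5%) lay on the lowest background of the list, 3.76 fragments, where each further fragment adds 0.210 to the fold enrichment, so many peaks tie. A fold enrichment of 3.57 on that background stands for 16 fragments. The oxLDL KO list held 4668 peaks, with a lowest background of 3.42 fragments, so a peak without a KO counterpart is one that was not called there and not a site shown to be empty. Fold enrichments of the WT and KO lists are given side by side as each list has them and are not compared. A peak is named by the gene whose end is nearest, which does not show that it acts on that gene.

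Apart from Bcl2a1b and Bcl2a1d, the RefSeq promoters below come from those that hold a peak summit. Those were picked by high fold enrichment with or without an oxLDL KO counterpart, or as macrophage lineage genes. All are printed to show where the letters of known factors stand in them. Their content of G and C (GC content) ran from 44.3% at Bcl2a1d to 75.7% at Met, within 29% to 88% for all genes with a 5′ peak. Each window runs from 250 bases before a RefSeq start to 50 after it, 5′ to 3′ on the gene's strand, on GRCm38.p6, the assembly of mm10. Capitals mark matches, on either strand, to the letters of PU.1 (GAGGAAGT), other ETS factors (CCGGAAG), NRF1 (GCGCANGCG), AP-1 (TGANTCA), CRE (TGACGTCA), YY1 (AAGATGGC), C/EBP (TTGCNNAA) or IRF (GAAANNGAA). The promoters of Fcer1g and Trem2 are those of macrophage lineage genes, those of Met and Pla2g4a hold summits with an oxLDL KO counterpart, and that of Ttc19 holds one without. The paralogs Bcl2a1b and Bcl2a1d were added after their values were seen.
Fcer1g: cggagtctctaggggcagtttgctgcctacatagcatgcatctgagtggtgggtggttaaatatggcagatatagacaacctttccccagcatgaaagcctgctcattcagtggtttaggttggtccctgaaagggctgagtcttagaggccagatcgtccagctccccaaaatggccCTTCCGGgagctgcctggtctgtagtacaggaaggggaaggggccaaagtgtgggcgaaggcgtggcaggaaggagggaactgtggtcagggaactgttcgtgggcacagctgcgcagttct
Trem2: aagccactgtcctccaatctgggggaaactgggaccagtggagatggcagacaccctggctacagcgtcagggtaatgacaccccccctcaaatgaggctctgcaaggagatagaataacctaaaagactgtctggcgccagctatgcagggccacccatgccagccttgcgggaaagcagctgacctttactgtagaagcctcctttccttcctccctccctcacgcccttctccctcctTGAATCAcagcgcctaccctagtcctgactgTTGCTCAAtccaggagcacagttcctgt
Bcl2a1b: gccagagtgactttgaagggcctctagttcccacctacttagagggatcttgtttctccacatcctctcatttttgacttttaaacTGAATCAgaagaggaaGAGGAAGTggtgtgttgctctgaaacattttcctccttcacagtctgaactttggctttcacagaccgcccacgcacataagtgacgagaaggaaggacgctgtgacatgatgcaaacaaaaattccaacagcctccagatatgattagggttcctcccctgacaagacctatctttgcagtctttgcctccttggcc
Bcl2a1d: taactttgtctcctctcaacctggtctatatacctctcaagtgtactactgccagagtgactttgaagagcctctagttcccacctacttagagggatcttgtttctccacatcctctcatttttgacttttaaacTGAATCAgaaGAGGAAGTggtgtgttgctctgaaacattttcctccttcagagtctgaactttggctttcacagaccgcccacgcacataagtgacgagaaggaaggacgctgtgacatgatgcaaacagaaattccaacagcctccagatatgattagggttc
Ttc19: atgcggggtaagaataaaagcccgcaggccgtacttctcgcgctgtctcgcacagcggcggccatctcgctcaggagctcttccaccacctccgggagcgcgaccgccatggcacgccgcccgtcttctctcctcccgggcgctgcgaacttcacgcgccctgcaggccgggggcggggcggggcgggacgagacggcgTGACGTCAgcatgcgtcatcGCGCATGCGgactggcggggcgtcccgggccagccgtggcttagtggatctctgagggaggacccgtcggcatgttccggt
Met: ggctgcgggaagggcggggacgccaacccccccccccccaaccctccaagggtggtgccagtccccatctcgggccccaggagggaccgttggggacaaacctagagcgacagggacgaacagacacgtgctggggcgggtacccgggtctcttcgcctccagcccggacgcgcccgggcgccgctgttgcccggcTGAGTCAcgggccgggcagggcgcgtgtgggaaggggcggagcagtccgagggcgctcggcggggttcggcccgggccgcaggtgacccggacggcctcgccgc
Pla2g4a: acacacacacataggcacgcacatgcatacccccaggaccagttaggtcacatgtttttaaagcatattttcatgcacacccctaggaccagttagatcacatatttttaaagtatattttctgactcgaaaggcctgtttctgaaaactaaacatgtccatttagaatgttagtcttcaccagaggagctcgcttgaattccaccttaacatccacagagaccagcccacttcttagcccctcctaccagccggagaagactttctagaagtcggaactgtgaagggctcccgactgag

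Fcer1g, the signalling chain of Fc receptors, has its window at chr1:171234300-171234599 on the minus strand, with 1 ETS match. Its peak had a fold enrichment of 5.25 from 24 fragments, a summit 238 bp before the gene and no counterpart in oxLDL KO. Trem2, a lipid-sensing receptor of macrophages, has its window at chr17:48346151-48346450 on the plus strand, with 1 AP-1 and 1 C/EBP match. Its summit lay 170 bp before the gene, at base 81 of the window, with a fold enrichment of 3.99 from 18 fragments. The oxLDL KO list had a peak within 1 kb of an end of the gene, but none overlapped this one.

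Bcl2a1b and Bcl2a1d, anti-apoptotic BCL2 relatives, have windows at chr9:89199023-89199322 (plus strand) and chr9:88731801-88732100 (minus strand). Both hold a PU.1 match next to an AP-1 match, and the windows share an identical run of 84 bases. That run lies outside both peaks, and the sequence at their summits was not read. Whether fragments of one copy were placed at the other was therefore not tested, and the values of both are uncertain. Their peaks had fold enrichments of 6.30 (29 fragments, summit 304 bp before the gene) and 5.88 (27 fragments, 357 bp before), and neither was overlapped by an oxLDL KO peak.

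Ttc19, which codes for a mitochondrial protein, starts 34 bp from Zswim7 on the opposite strand, in a window at chr11:62281223-62281522 (plus strand) with 1 CRE and 1 NRF1 match. The peak there had its summit at base 28 of the window, before Ttc19 and 145 bp inside Zswim7, whose end is the nearest. Its fold enrichment was 5.46 from 25 fragments, with no oxLDL KO counterpart. Met, the receptor of hepatocyte growth factor, has its window at chr6:17463707-17464006 (plus strand) with 1 AP-1 match and a GC content of 75.7%. The summit at Met lay at base 60 of the window, with a fold enrichment of 5.67 from 26 fragments, and the overlapping oxLDL KO peak had 4.07 from 17. Pla2g4a, the cytosolic phospholipase that releases arachidonic acid, has its window at chr1:149961241-149961540 (minus strand), a GC content of 45.3% and none of the marked matches. Its summit lay at base 19, with a fold enrichment of 6.52 from 33 fragments, and the oxLDL KO peak had 4.15 from 22.

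Gene-end peaks lay almost entirely at the 5′ side. Of the 2441 peaks nearest to an end of known strand, 94.7% were at 5′ ends (interval 93.7 to 95.5), and in the oxLDL KO list the share was 95.9% (94.7 to 96.8) of 1459. Sequence within 1 kb of 5′ ends only held 79.8 narrow oxLDL WT peaks per Mb, sequence within 1 kb of 3′ ends only held 3.49, gene interiors 4.12 and the space between genes 1.76. The density at 3′ ends was thus close to that inside genes. In oxLDL KO the same densities were 48.5, 1.71, 1.84 and 0.770 per Mb. Positions within 1 kb of any gene end made up 3.096% of the span from 3 Mb to the last gene end of each chromosome and held 32.4% (31.4 to 33.3) of the narrow oxLDL WT peaks, beside 38.9% (37.5 to 40.3) of the 4583 from the KO list.

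Summits at 5′ ends sat inside the gene, past the start itself. Their median position was 278 bp into the gene (quartiles 130 and 479 bp), 80.4% lay inside the gene and 53.4% between 100 and 500 bp inside. The fullest bin of 100 bp, from 200 to 300 bp inside, held 394 summits, and the bin just before the gene held 35. A smaller group of summits lay before the start, with 163 (7.05%) between 400 and 200 bp before it, against 91 (3.94%) in the last 200 bp. In the oxLDL KO list the median was 320 bp inside (quartiles 197.5 and 499), 87.1% lay inside the gene, and 2.001% fell in the last 200 bp before it. For the 1333 peaks at genes whose start in the promoter table equals the gene end, the median was 259 bp inside, 56.6% lay 100 to 500 bp inside and 3.60% in the last 200 bp before the start.

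**Figure D1:**
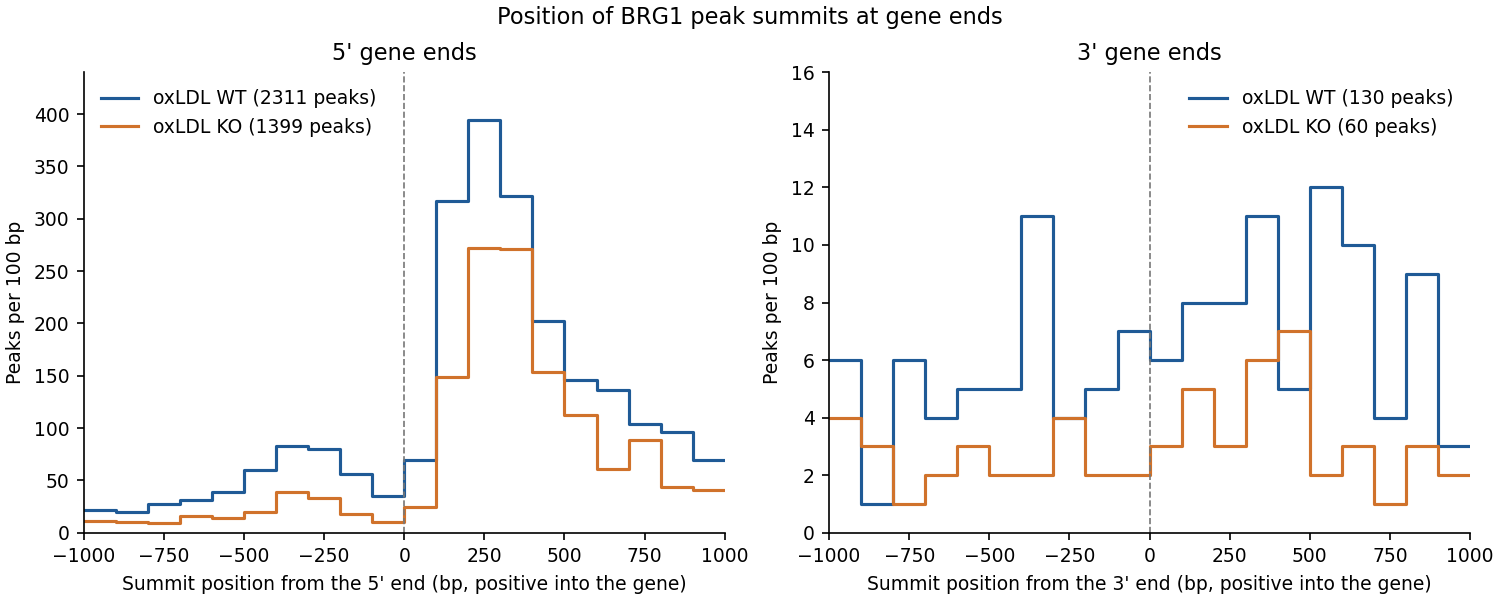
Position of BRG1 peak summits from the nearest 5′ end (left) or 3′ end (right), in peaks per 100 bp against distance in bp (positive into the gene), for oxLDL WT (blue) and oxLDL KO (orange). At 5′ ends the oxLDL WT counts reach 394 from 200 to 300 bp inside the gene and drop to 35 just before it, while at 3′ ends the 130 summits show no such maximum.

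The same gene could carry peaks on both sides of its start. Of the 3095 genes with a gene-end peak, 2779 had 1 peak, 304 had 2, 11 had 3 and 1 had 4. At 209 genes there were at least 2 peaks within 1 kb of the 5′ end, and at 177 of these they lay on both sides of it. Ninj1, a membrane protein that ruptures the plasma membrane of dying cells, had 4: 3 at its 5′ end, with summits 302 bp before and 185 and 789 bp inside and fold enrichments of 2.73, 3.78 and 4.20, and 1 past its 3′ end (4.41, 622 bp past). A summit lay within 1 kb of the 5′ ends of genes on opposite strands in 234 cases, with a median of 157.5 bp between those ends.

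Summits at 3′ ends were spread over the window, with a median 171.5 bp inside the gene and quartiles -360.75 and 541.5 bp, where a negative value lies past the end. Of these 130 peaks, 28 also lay within 1 kb of another start in the promoter table. Peaks of genes without a strand had a median 270 bp inwards from the nearest end, near the value for 5′ ends. Fold enrichment did not set the classes apart: the medians were 3.64 at 5′ ends, 3.63 at 3′ ends and 3.57 at ends without a strand.

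Among 5′ peaks with an oxLDL KO counterpart, the strongest in the WT list were at Pold4 and Plcg2. Pold4, a small subunit of DNA polymerase delta, had a fold enrichment of 7.35 from 34 fragments, 207 bp inside the gene, and 4.75 in oxLDL KO. Plcg2, a phospholipase that signals below immune receptors, had 7.34 from 37 fragments, 209 bp inside, and 6.88 in oxLDL KO. Both counterparts had their summits within 100 bp of the WT summit, at 61 and 56 bp.

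The other genes of the first 10 by fold enrichment were of varied function. Tal1, a transcription factor of blood progenitors, had 6.71 (WT list) and 4.88 (KO list). Dock8, an exchange factor that drives leukocyte migration, had 6.67 and 4.53. Clec4a2, a lectin receptor of myeloid cells, had 6.30 and 6.34, with summits 10 bp apart. Cebpg, a C/EBP transcription factor, had 6.30 and 6.11. The remaining ones were Pias1, an inhibitor of STAT signalling (6.67 and 4.30), Pla2g4a (printed above), Chka, a choline kinase (6.51 and 3.39), and Zfand6, a zinc finger protein (6.30 and 5.43).

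Equally strong 5′ peaks had no counterpart in oxLDL KO. The peak between B9d2, a protein of the ciliary base, and Tmem91 had a fold enrichment of 7.35 from 34 fragments, as many as that at Pold4. Tgfbr2, the type II receptor of TGF-β, had 6.51 from 30 fragments, 265 bp inside the gene. Tent2, a poly(A) polymerase, had 6.47, Stx6, a syntaxin of the Golgi, 6.26, and Dhrs9, a retinol dehydrogenase, 6.09. These peaks passed the caller's limit in WT with room to spare, with −log10 q values from 16.4 at B9d2 to 11.1 at Dhrs9.

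Ctsz and Atp6v0a1 were also among the 10 strongest without a counterpart. Ctsz, a lysosomal cysteine protease, had a fold enrichment of 6.09 from 28 fragments with its summit 786 bp before the gene, and Atp6v0a1, a subunit of the proton pump that acidifies lysosomes, had 5.88 from 27 fragments, 876 bp before the gene. The remaining genes of the 10 were Slc25a45, a mitochondrial carrier (6.03), Pgap6 (5.88) and Bcl2a1b (printed above). At Ctsz the oxLDL KO list had another peak within 1 kb of an end of the gene, with a fold enrichment of 3.40.

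The highest fold enrichments of all gene-end peaks with a strand were at 3′ ends. Ptpn18, a tyrosine phosphatase of blood cells, had 8.82 from 41 fragments, 859 bp inside its 3′ end, and 4.53 in oxLDL KO. Mthfd1, an enzyme of folate metabolism, had 8.61 from 40 fragments and 4.98 in oxLDL KO. Slc12a3 (6.26 and 4.98), Cep95 (5.21 and 4.07) and Gm3435 (5.01 and 5.88) also had a counterpart. The strongest without one were at Tmem43 (6.72), Gstm6 (6.51), Med29, a Mediator subunit (5.46), Alyref2 (5.25) and Aebp2, a partner of Polycomb complex PRC2 (5.25).

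Of the gene-end peaks, 980 of 3022 were overlapped by at least 1 bp of an oxLDL KO peak, or 32.4% (30.8 to 34.1), beside 24.8% of all narrow oxLDL WT peaks and 21.2% (20.2 to 22.2) of those away from gene ends. The share was 33.4% (31.5 to 35.4) at 5′ ends, 20% (14.0 to 27.7) at 3′ ends, 22.5% (21.2 to 23.8) inside genes, 19.6% up to 20 kb from a gene and 18.7% beyond that. Seen from the other side, 1127 of the 1782 oxLDL KO gene-end peaks (63.2%, 61.0 to 65.5) met an oxLDL WT peak, beside 58.9% of all narrow oxLDL KO peaks. When both lists were limited to a −log10 q of 5 or more this was no longer so, with 14.7% of 645 gene-end peaks and 15.6% of the others overlapped, a difference of -0.84 percentage points whose interval (-4.02 to 2.58) includes 0, against 11.2 (9.28 to 13.2) for all peaks.

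Gene-end peaks had a KO counterpart more often than other narrow peaks in each quintile of fold enrichment, with the widest gap in the fourth and the smallest in the highest. Over quintiles of fold enrichment from low to high, 22.2%, 25.6%, 31.1%, 38.1% and 46.9% of gene-end peaks were overlapped, against 10.7%, 14.1%, 17.4%, 22.4% and 40.2% of the other narrow peaks. At matched fragment counts the shares were 20.8% and 9.26% for 13 to 15 fragments, 30.7% and 17.4% for 16 to 18, 41.1% and 30.0% for 19 to 24, and 48.8% and 51.3% for 25 or more. In the last class the intervals overlapped (41.2 to 56.4 and 46.8 to 55.8). Overlapped gene-end peaks were also wider than the rest, with medians of 469 and 344 bp, and a wider peak has more room for 1 shared base.

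**Figure D2:**
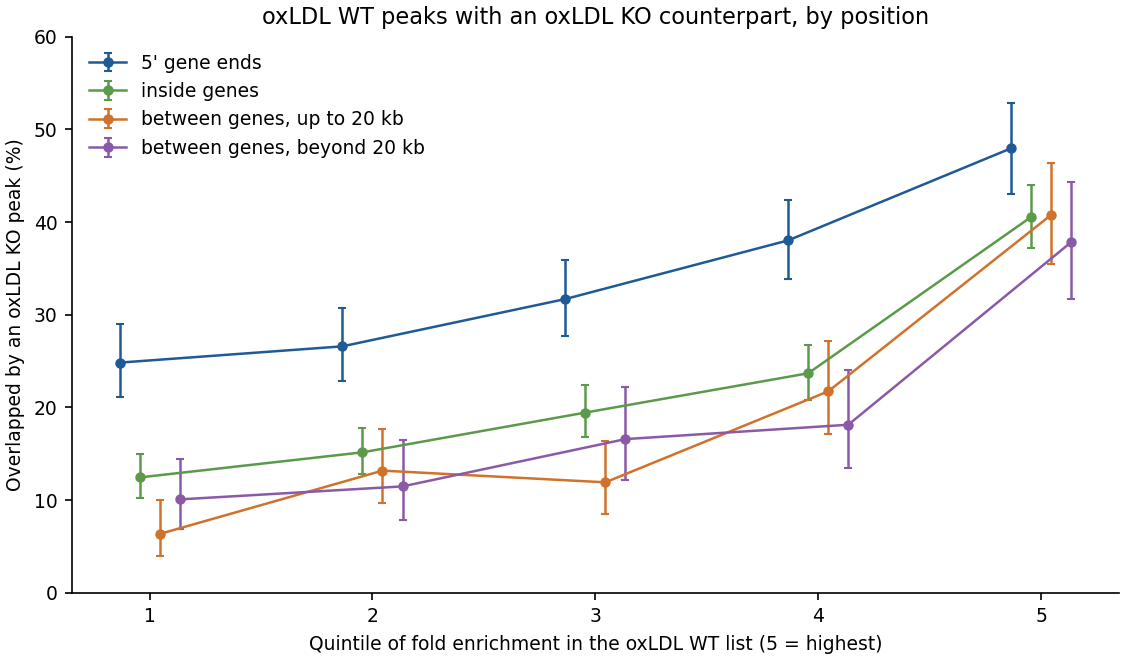
Share of oxLDL WT peaks overlapped by an oxLDL KO peak (%) against the quintile of fold enrichment in the oxLDL WT list, by position; points are shares and bars Wilson 95% intervals. Peaks at 5′ ends (blue) rise from 24.8% to 48.0% and stand above the other classes in each quintile, with bars that overlap those of all other classes shown in the highest.

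Where a summit sat around the start went with its chance of a counterpart. Of 5′ summits more than 400 bp before the gene, 19% (14.2 to 25) were overlapped, and of those from 400 bp before to the start 21.7% (17.0 to 27.1). Inside the gene the shares were 33.9% up to 200 bp, 38.0% from 200 to 400 bp, 37.4% from 400 to 600 bp and 36.0% beyond. Counterparts sat close to the WT summit, with a median gap of 99.5 bp and 73.4% within 200 bp. Peaks inside genes that lay within 1 kb of another start in the promoter table resembled gene-end peaks, with 34.5% (30.8 to 38.5) of 585 overlapped against 20.3% (18.98 to 21.7) of the other 3293.

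By gene, 3095 of the 21887 protein-coding genes (14.1%) carried such a peak in oxLDL WT, against 1895 (8.66%) in oxLDL KO, and 1179 (5.39%) carried one in both. The shared genes were 38.1% (36.4 to 39.8) of the WT genes and 62.2% (60.01 to 64.4) of the KO genes. A shared gene has a narrow peak near either of its ends in each list, and these peaks need not overlap. The KO value given for a gene of the lists below is that of its strongest such peak. The WT peaks given below for Pfn1, Ern1 and Bicra, for instance, were not overlapped by a KO peak. Peaks of 1000 bp or more do not count here. With no limit on width, 1309 genes had a gene-end peak in both lists. A gene given below as in WT alone, in KO alone or in neither list may therefore hold a broad peak there. Chromosomes X and Y held no gene-end peak, and their genes stay in these totals. Between chromosomes 1 and 19, the share of genes with a peak ran from 10.05% on chromosome 7 to 19.2% on chromosome 3.

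Genes of the macrophage lineage stood highest of the 13 pathway lists in oxLDL WT, with 25 of 30 marked there and 11 in the KO list, all 11 within the 25. These were 83.3% (66.4 to 92.7) and 36.7% (21.9 to 54.5), beside 14.1% and 8.66% of all genes. Of all genes, 5.39% had a peak in both lists. The lineage factor Spi1 (PU.1) had fold enrichments of 5.02 (WT list) and 4.10 (KO list), Maf 3.90 and 4.34, and Cebpb 3.36 and 3.85. The growth factor receptors Csf1r (3.57 and 3.85) and Csf2rb (5.25 and 3.62), the surface markers Adgre1 (3.30 and 3.85) and Cd68 (3.99 and 3.85), the perforin-like Mpeg1 (4.41 and 3.62), the lysozyme Lyz2 (3.15 and 3.85), the adaptor Tyrobp (3.78 and 4.53) and Trem2 (3.99 and 3.85) completed the shared set. At Cebpb, Lyz2, Tyrobp and Trem2 the WT peak given was not overlapped by a KO peak. The KO peak that overlapped the WT peak of Spi1 had 3.61.

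The other 14 macrophage genes had a peak in oxLDL WT alone. Fcer1g had 5.25, the Fc receptors Fcgr1 and Fcgr2b 4.62 and 3.57, and the efferocytosis receptor Mertk 4.41. The actin-binding Coro1a had 4.81, the lineage factors Irf8 4.13, Cebpa 3.37 and Mitf 3.36, and the integrin Itgam 3.57. Runx1, Fcgr3, Cd14 and Cx3cr1 had a gene-end peak in neither list. Genes of other cell types were seldom hit: 6 of 140 genes of neutrophils, lymphocytes, dendritic cells, red cells and platelets, stroma, hepatocytes and neurons in the WT list, and 1 of 140 in the KO list. These were 4.29% (1.98 to 9.03) and 0.714% (0.126 to 3.93), beside 14.1% and 8.66% of all genes. The 6 were Mmp8 (2.94), Cd4 (2.46), Xcr1 (4.41), Bst2 (3.78), Tcf4 (3.75) and Tal1 (6.71), and Tal1 was the 1 in oxLDL KO.

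Genes of the actin skeleton and leukocyte movement followed in oxLDL WT, with 22 of 40 in the WT list, 15 in the KO list and 10 in both. These WT and KO counts were 55% and 37.5%, beside 14.1% and 8.66% of all genes. Behind Dock8 came Rac2, a GTPase of blood cells (5.88 and 4.53), Hcls1 (5.04, WT alone), Coro1a and Pfn1, which feeds actin growth (4.62 and 3.32). Arpc2 (3.78 and 4.88) and Arpc1b (4.20 and 3.85) of the ARP2/3 complex, Rhoa (3.96 and 3.82) and Lsp1 (4.41 and 6.56) were in both lists, and Wasf2, Arpc5, Rhog, Vav3 and Vcl in oxLDL KO alone.

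Of the genes that handle lipid, 19 of 40 had a peak in the WT list, 13 in the KO list and 8 in both. The WT and KO shares were 47.5% and 32.5%, beside 14.1% and 8.66% of all genes. Plin2, which coats lipid droplets, had 5.25 in oxLDL WT and no narrow peak at its ends in oxLDL KO. Scap, the sterol sensor that carries SREBP proteins, had 5.25 and 5.20. Scarb1, a receptor of lipoproteins, had 4.62 in WT alone, and the cholesterol exporter Abcg1 (3.99) and the scavenger receptor Msr1 (3.26) were likewise in WT alone. The lipid-activated factor Pparg (3.45 and 4.24) and the cholesterol carriers Npc1 (3.19 and 4.98) and Npc2 (4.20 and 3.17) were shared. Abca1, Plin3, Srebf2, Lpl and Cyp27a1 had one in oxLDL KO alone, and the oxLDL receptors Cd36 and Olr1 in neither.

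Of the genes of Toll, NF-κB and cytokine signalling, 16 of 40 were in the WT list (interval 26.3 to 55.4%) and 6 in the KO list (7.06 to 29.1%), beside 14.1% and 8.66% of all genes. The 3 shared genes were the adaptor Myd88 (3.99 and 5.20), Tab2 (3.67 and 5.63) and the inhibitor Nfkbia (4.06 and 3.62). The NF-κB subunits Rel (5.56 from 28 fragments) and Relb (4.83), the endotoxin receptor Tlr4 (5.56 from 28 fragments) and the kinase Ikbkb (5.42) had one in WT alone, as did Il1b (3.78), Ccl3 and Ccl4 (both 3.64, from a shared peak) and Cxcl2 (3.15). Tlr6, Nfkb1 and the inflammasome sensor Nlrp3 had one in KO alone, at 4.20, 5.52 and 5.20. Among all 39 chemokine genes, 5 were in the WT list, with Ccl6 highest at 5.46, and 0 in the KO list. These shares, 12.8% (5.60 to 26.7) and 0% (up to 8.97), have intervals that include those of all genes.

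Interferon genes counted 15 of 31 in the WT list and 8 in the KO list, with 6 shared. The shares were 48.4% and 25.8%, beside 14.1% and 8.66% of all genes. Irf5 (4.62 and 4.07), Jak1 (3.15 and 4.29) and the antigen-processing pair Psmb9 and Tap1, which share 1 peak (4.20 and 3.85), were in both. Irf2 (4.33), Ifih1 (4.41) and Jak2 (3.96) were in WT alone.

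Stress programmes were also above the share of all genes, 14.1% in oxLDL WT and 8.66% in oxLDL KO. For the unfolded protein response in oxLDL KO the interval (7.88 to 35.6%) includes that share. Genes of the oxidative stress response counted 15 of 30 in the WT list and 10 in the KO list, with 6 shared: Osgin1 (4.83 and 4.30), the peroxiredoxins Prdx1 (4.20 and 3.85) and Prdx6 (3.99 and 3.85), Bach1, Sod1 and Gsr. The WT peaks of Prdx6 and Gsr were not overlapped, and the KO peak that overlapped that of Osgin1 had 3.62. Nfe2l2 (NRF2), the master factor of this response, had 4.62 with its summit 1000 bp inside the gene, and although an oxLDL KO peak overlapped it, that peak's own summit was not within 1 kb of a gene end. Genes of the unfolded protein response counted 14 of 28 and 5, with 4 shared; the sensor Ern1 had 4.62 and 4.30, Sel1l 4.62 and 3.85, and the factors Xbp1 (4.41) and Ddit3 (4.17) had a peak in WT alone. Genes of AP-1 and other immediate early factors counted 17 of 31 and 11, with 9 shared, among them Jun (4.79 and 3.32), Junb (3.78 and 4.30) and Klf2 (2.59 and 5.43). Klf4 (4.84), Ier3 (4.41) and Btg2 (4.20) were in WT alone, and Fos, Fosb and Myc in neither.

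Lysosome and autophagy genes counted 21 of 40 in the WT list and 8 in the KO list, or 52.5% and 20%, beside 14.1% and 8.66% of all genes. The 6 shared genes included Ctsd (4.20 and 3.40), Lamp1 (3.99 and 3.03) and Fnip1 (3.99 and 4.75). The cathepsins Ctsl (4.44) and Ctsh (4.38), the enzyme Hexa (4.20) and Grn (3.99) had a peak in WT alone.

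The lowest oxLDL WT shares of the pathway lists were those of SWI/SNF subunits, the cell cycle, mitochondrial biogenesis and RNA polymerase II. In oxLDL KO the Toll, NF-κB and cytokine list (15%) and the unfolded protein response (17.9%) lay below the first 3 of these. Lysosome and autophagy genes (20%) lay below the SWI/SNF and cell cycle lists there. SWI/SNF subunits counted 9 of 31 in the WT list and 8 in the KO list, with Dpf2 (5.04 and 3.85), Bicra (5.25 and 3.39) and Phf10 (3.57 and 3.17) in both, Smarca4 itself (3.19) in WT alone and Smarcd1 in neither. Cell cycle genes counted 11 of 36 and 8, led by the CDK inhibitor Cdkn2d (5.67 and 4.75). Genes of mitochondrial biogenesis counted 6 of 31 in each list, with Esrra (4.41 and 6.34) and Tfb2m (3.78 and 7.01) shared, and the machinery of RNA polymerase II 5 of 35 and 3, with 0 genes shared. All 13 pathway lists were above the 14.1% of all genes in the WT list, that of RNA polymerase II at 14.3%, and 12 of 13 were above 8.66% in the KO list. Some intervals include these shares. In WT they are those of mitochondrial biogenesis (9.19 to 36.3%) and RNA polymerase II (6.26 to 29.4%). In KO they are those of RNA polymerase II (2.96 to 22.4%), the Toll list (7.06 to 29.1%) and the unfolded protein response (7.88 to 35.6%).

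**Figure D3:**
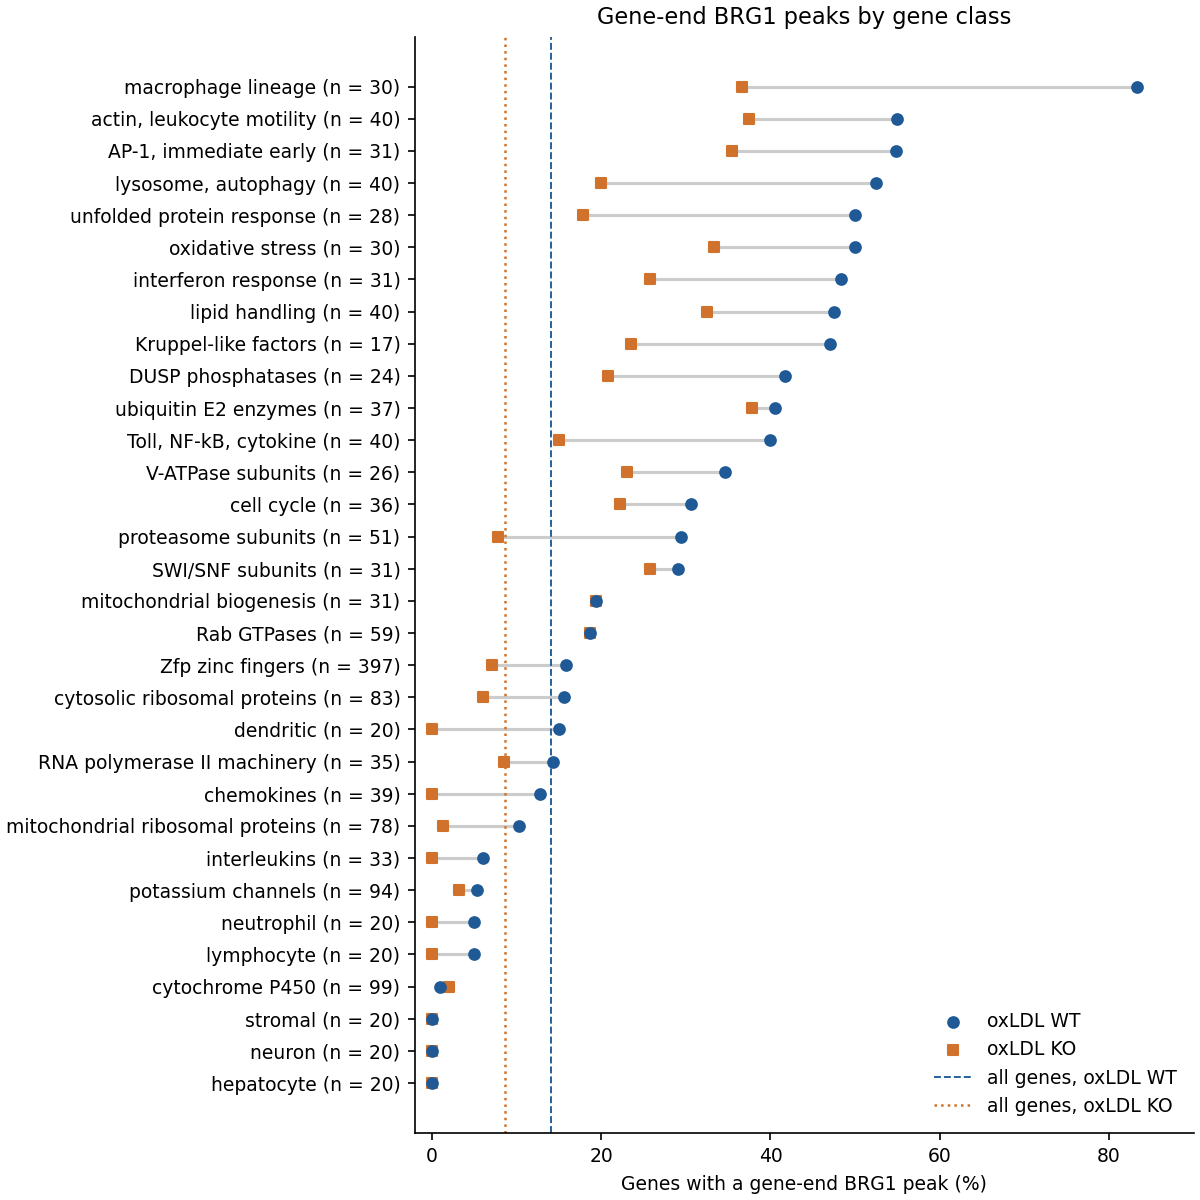
Share of genes with a gene-end BRG1 peak (%) by gene class, for oxLDL WT (blue circles) and oxLDL KO (orange squares), with the number of genes in each class; dashed and dotted lines mark all protein-coding genes (14.1% and 8.66%). Macrophage lineage genes stand apart in oxLDL WT (25 of 30), and stromal, hepatocyte and neuron genes have no peak in either list.

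Gene families were also taken by symbol. Ubiquitin-conjugating E2 enzymes counted 15 of 37 in the WT list and 14 in the KO list with 11 shared, and 10 of their 15 peaks were overlapped, among them those of Ube2j1 (5.11 and 4.88) and Ube2w (4.79 and 5.42). Rab GTPases counted 11 of 59 in each list with 8 shared, led by Rab8b (4.83 and 5.20), and the VPS and sorting nexin family 19 of 65 and 17. Proteasome subunits counted 15 of 51 and 4, mitochondrial ribosomal proteins 8 of 78 and 1, and cytosolic ribosomal proteins 13 of 83 and 5, with 1 shared. In oxLDL WT the intervals of mitochondrial (5.29 to 18.95%) and cytosolic (9.39 to 24.98%) ribosomal proteins include the 14.1% of all genes. So does that of Rab GTPases (10.7 to 30.4%). In oxLDL KO the intervals of proteasome subunits (3.09 to 18.5%) and cytosolic ribosomal proteins (2.60 to 13.34%) include the 8.66% of all genes. That of mitochondrial ribosomal proteins (0.227 to 6.91%) lies below it. The remaining intervals of E2, Rab, VPS and proteasome genes lie above these shares. Whether these families differ from each other in sharing was not tested, and the intervals of the overlapped share for E2 enzymes (41.7 to 84.8%) and proteasome subunits (7.05 to 45.2%) overlap. DUSP phosphatases (10 of 24 and 5), Krüppel-like factors (8 of 17 and 4) and TNF receptors (8 of 20 and 5) were well above the share of all genes, while olfactory receptors had 3 of 1107 and 1, and collagens, keratins, defensins, ligand-gated channels and the Sox, Pax and Tbx factors 0 in both.

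Gene-end peaks at 5′ ends lay at promoters rich in G, C and CpG. The median GC content of the RefSeq promoter was 64.0% for genes with a 5′ peak in oxLDL WT, 66.0% for those in oxLDL KO and 56.3% for all 17492 promoters. From the lowest to the highest quintile of GC content, 3.14%, 6.17%, 11.8%, 19.5% and 27.6% of genes had a 5′ peak in oxLDL WT, and 1.17%, 3.09%, 5.80%, 11.5% and 20.6% in oxLDL KO. From the lowest to the highest quintile of the ratio of observed to expected CpG, the oxLDL WT shares were 1.91%, 5.49%, 14.0%, 21.5% and 25.3%. GC content can change how well a fragment is amplified and sequenced, and its part in these shares was not tested.

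Sharing with oxLDL KO went with GC content as well. Of 5′ peaks at promoters of the lowest GC quintile, 19.3% (13.1 to 27.5) were overlapped, and of the highest 40.2% (37.1 to 43.3), while the median pileup was 18 fragments in both. Among peaks of 16 to 18 fragments the shares from low to high GC were 17.5%, 20.2%, 22.7%, 31.7% and 37.3%. The few promoters printed above cannot speak to this order, since some were chosen by whether a KO peak overlapped. Met (75.7% GC) and Pla2g4a (45.3%) had an overlapping KO peak. Ttc19 (70%), Trem2 (56.0%), Fcer1g (55.7%), Bcl2a1b (46.7%) and Bcl2a1d (44.3%) had none.

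**Figure D4:**
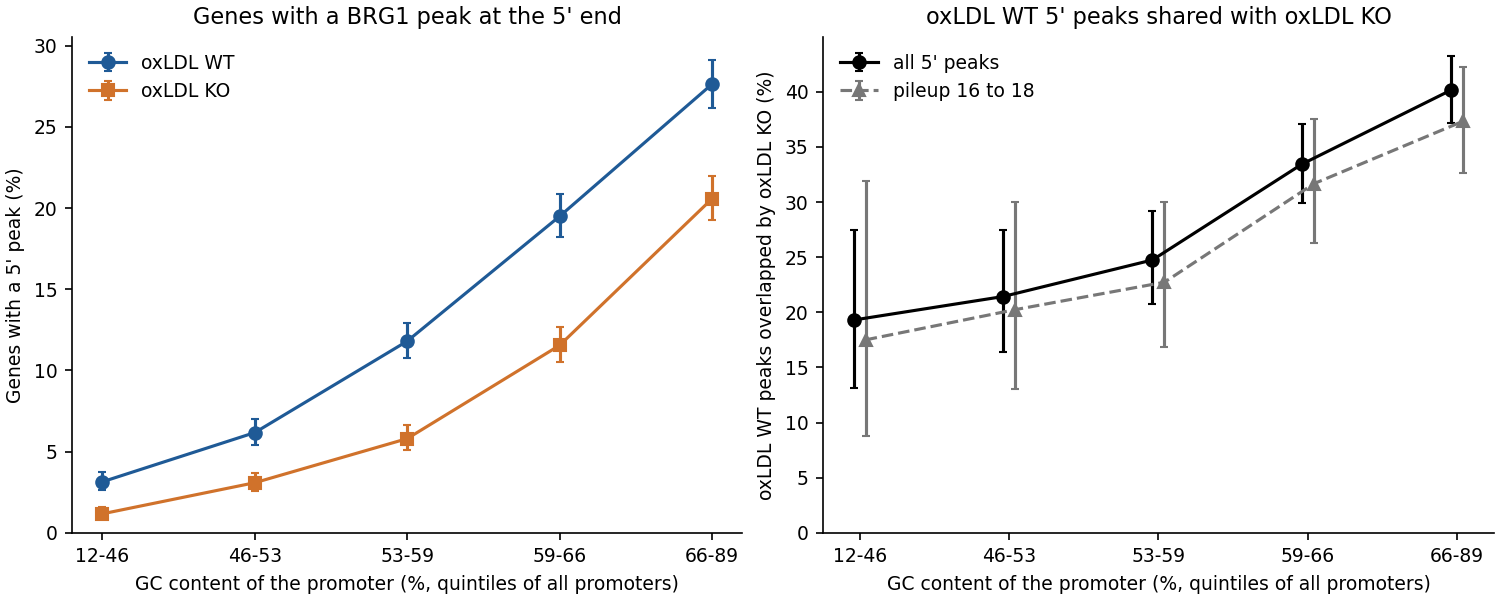
Left: share of genes with a 5′ peak (%) by quintile of promoter GC content (%) for oxLDL WT (blue) and oxLDL KO (orange); right: share of oxLDL WT 5′ peaks overlapped by oxLDL KO (%), for all peaks and for a pileup of 16 to 18 fragments, with Wilson 95% bars throughout. The share of genes goes from 3.14% to 27.6% in oxLDL WT, and the overlapped share from 19.3% to 40.2%.

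Motif letters in the promoters were compared on either side of the median ratio of observed to expected CpG, since most letters follow base composition. Over all promoters, the SP/KLF letters GGGCGG stood in 71.7% of promoters with a 5′ peak and 42.3% of those without, the NRF1 letters in 15.0% and 7.89%, and TATAAA in 6.37% and 14.4%. Below that median, PU.1 letters stood in 9.26% (6.90 to 12.3) of 443 promoters with a 5′ peak and 3.76% (3.37 to 4.19) of 8302 without, other ETS letters in 8.58% and 3.85%, SP/KLF letters in 35.9% and 18.02%, and TATAAA in 12.2% and 21.3%. Above it PU.1 letters stood in 2.93% and 2.06%, and other ETS letters in 18.9% and 19.96%. AP-1 letters stood in 9.93% of promoters below the median with a 5′ peak and 10.6% without, and in 3.14% and 3.57% above it. The PU.1 and ETS letters both hold GGAAG but neither contains the other.

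Read by gene, 41 of 353 promoters below the median with PU.1 letters had a 5′ peak, or 11.6% (8.68 to 15.4), against 4.79% (4.35 to 5.27) of those without. Of these 41 genes, which include Bcl2a1b and Bcl2a1d, 8 had an overlapped peak (19.5%, 10.2 to 34.0), beside 27.6% (23.5 to 32.2) of those with a 5′ peak and no PU.1 letters. Above the median the shares lay the other way, at 54.4% (41.6 to 66.6) of 57 genes with the letters and 35.9% (33.7 to 38.0) of those without. A match says only that the letters stand in the window. The windows mostly do not hold the summits themselves: 229 of 2311 5′ peaks (9.91%) had their summit in a promoter window of the gene.

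**Figure D5:**
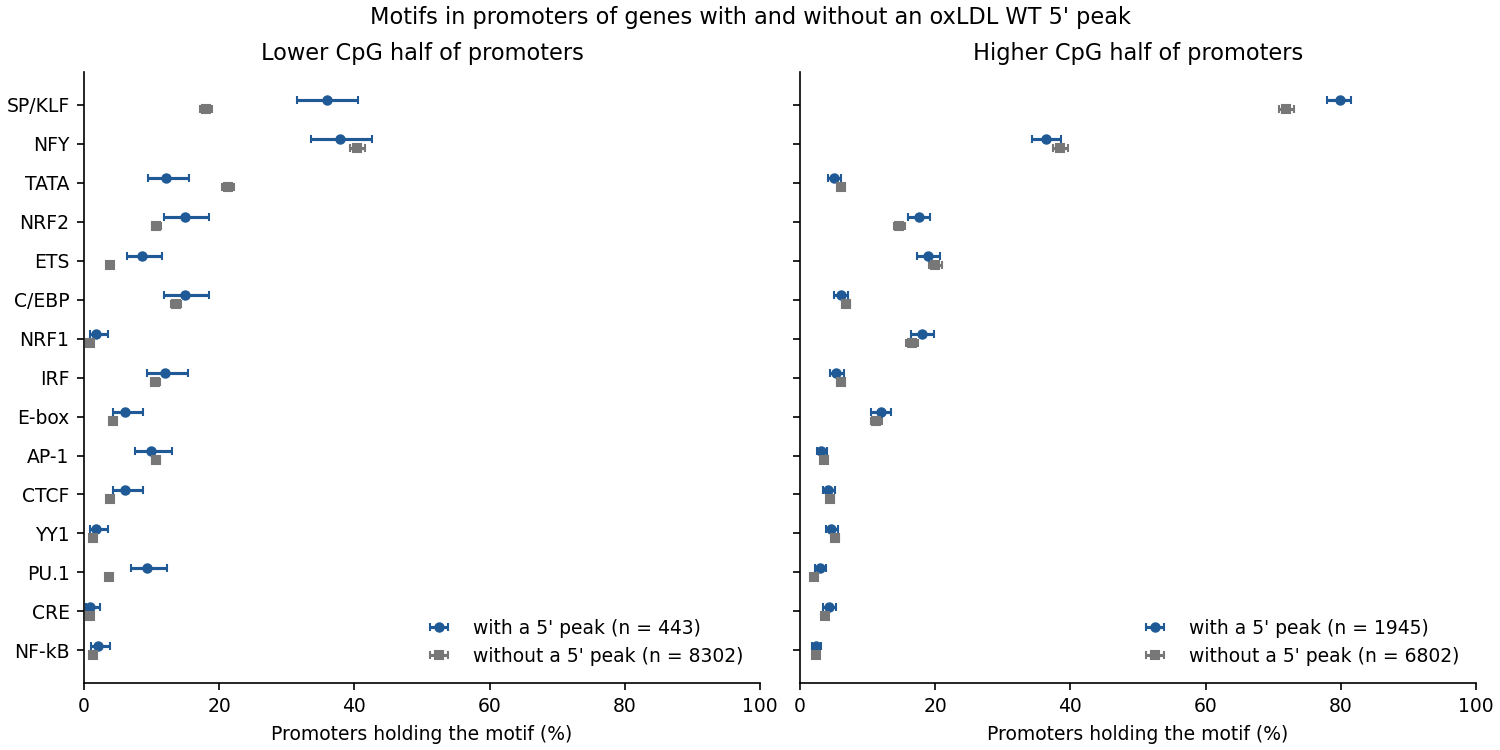
Share of promoters holding the letters of each of 15 motifs (%), for genes with (blue) and without (grey) an oxLDL WT 5′ peak, below (left) and above (right) the median ratio of observed to expected CpG, with Wilson 95% bars. Below the median PU.1 letters stand in 9.26% of promoters with a peak and 3.76% of those without.

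Few gene-end peaks were present in the untreated lists, which held 237 peaks in WT and 139 in KO. Of the 3022, 30 (0.993%) were overlapped by an untreated WT peak, beside 1.27% of all narrow oxLDL WT peaks, and 21 (0.695%) by an untreated KO peak, beside 0.621%. Of these, 22 of 30 and 16 of 21 were also overlapped in oxLDL KO. The peaks found in both untreated lists were at Fnip1, an AMPK-binding protein of the lysosomal pathway (3.99), Apbb2 (3.75) and Bcl2a1d. Among the others, H2-DMb2, a chaperone of MHC class II (5.67), and Picalm, a clathrin adaptor (5.25), were in untreated WT, and Irf5 (4.62) and the TGF-β receptor Tgfbr1 (4.38) in untreated KO.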

How the data were processed

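Peak lists of 4 BRG1 libraries were used, 1 per library and group. Per the submitters' processing notes, bcl2fastq 2.17, Trimmomatic 0.33, Bowtie2, MACS3 and the build mm10 were used, with no parameters given here; the sources do not say whether the input served as control. Per the labels, chromatin was prepared with an enzymatic kit, so fragment ends follow nuclease cuts. For each peak the authors deposited a score, a fold enrichment (a ratio over local background), −log10 p, −log10 q and a summit offset; the score is 10 times the −log10 q. No read totals are known. The pileup and background behind a peak were solved from its fold enrichment and −log10 p, taking a pseudocount of 1 and a Poisson tail, and were whole within 2% of a step for 99.9% of peaks in both oxLDL lists.

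Gene ends came from RefSeq (GRCm38.p6, 21887 protein-coding genes), and strand from a promoter table for 17492 of them, with 1 window taken per gene, the one nearest its 5′ end. That window starts exactly at the gene's 5′ end for 60.5% of these genes. Each peak was assigned to its nearest gene end, and a peak within 1 kb of several genes counts for each gene. Overlap meant at least 1 shared bp. The scripts, run with Python 3.11.15, pandas 2.3.3, numpy 2.4.6, SciPy 1.17.1 and matplotlib 3.10.9, were tested on simulated peaks. Named genes are, by fold enrichment, the first 10 5′ peaks with and 10 without an oxLDL KO counterpart, 5 and 5 at 3′ ends, and up to 4 genes per gene list; further genes of the lists were named after their values were seen. The peaks and all 75 gene lists were chosen with earlier results of these data known. Alternatives were the −log10 q limit, the distance, the width limit and the rule of overlap.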

Additional observations from a re-analysis of the deposited data

How the results depend on the processing

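No paired analysis was possible because each group has 1 library and no test was made. Limiting both lists to a −log10 q of at least 5 left 645 gene-end peaks (29.9% of narrow peaks), 14.7% of them overlapped by oxLDL KO (-0.84 percentage points against other peaks, interval -4.02 to 2.58), 108 genes in both lists and 7 macrophage lineage genes. A distance of 500 bp gave a gene-end share of 22.6%, 95.9% at 5′ ends and 694 genes in both lists, and 2 kb gave 41.4%, 92.7% and 30.4% of peaks overlapped. With no limit on width 34.6% were overlapped. With peaks narrower than 500 bp the gene-end share was 31.2%, 25.6% were overlapped (9.01 points above other peaks), 647 genes were in both lists and 16 macrophage genes had a peak. Asking for overlap of at least 50% of the WT peak left 23.6%, and summits within 200 bp 23.9% (7.48 points above other peaks). The cause of these changes was not tested. A limit of 2 on −log10 q moved no value outside its interval, or by over 1.5 times. Depth is known only through the background of each list, and a peak missing from the shorter oxLDL KO list may be a weak one that was not called.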

Other observations

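Peaks near the limits of the choice were few. In the last 100 bp inside the limit of 1 kb lay 125 peaks, with a median fold enrichment of 3.57 and 17.6% overlapped by oxLDL KO (11.9 to 25.2). In the next 100 bp outside it lay 117 peaks, with the same median of 3.57 and 28.2% overlapped (20.8 to 37.0). Of the gene-end peaks, 75 were within 100 bp of the width limit, and 169 of the 542 peaks of 1000 bp or more had a summit within 1 kb of a gene end. Peaks at 5′ ends of genes on opposite strands were overlapped by oxLDL KO in 28.6% of 234 cases (23.2 to 34.7), and 5′ peaks at a single 5′ end in 33.9% of 2076 (31.9 to 36.0). By chromosome, the overlapped share of gene-end peaks ran from 24.4% of 86 on chromosome 18 to 44.3% of 115 on chromosome 12.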
